A study of Mus musculus with 4 samples.

Results

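Cytosolic ribosomal protein genes of the mouse gingiva were followed across cell classes and 4 single-cell RNA libraries. They were chosen by name alone, as every symbol that starts with Rpl or Rps and a digit, plus Rplp0, Rplp1, Rplp2 and Rpsa. Names ending in a pseudogene suffix (-ps, 5 symbols) and the Rps6k kinases (10 symbols) were left out. This gave 86 of 32245 gene symbols, 52 with a large-subunit name and 34 with a small-subunit name. Of the 86, 77 encode structural proteins of the ribosome and 6 are paralogs of such genes (Rpl22l1, Rps27l, Rpl36al, Rpl39l, Rpl3l and Rpl10l). The other 3, Rps19bp1, Rpl7l1 and Rps27rt, share only the name pattern or are a further gene copy. The members lie on 19 chromosomes, 4 of them on X.

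The study asked how metformin, a glucose-lowering drug, acts on the gingiva in the prevention of periodontal disease. Maxillary gingiva of mice was digested with collagenase and DNase and strained, and 10x Genomics libraries were made. There was 1 library for each of 4 conditions: disease treated with metformin (called DM here), disease (D), metformin without disease (M) and healthy (H). The sources used here do not give the strain, the age or number of mice behind a library, the model of disease or the metformin dose. With 1 library per condition no test between conditions was possible. Every difference below compares single libraries, and the 95% intervals cover counting error only.

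The deposited values were unique molecular identifier (UMI) counts, each UMI standing for a captured RNA molecule. After filtering, 1653 (DM), 1692 (D), 2473 (M) and 1307 (H) cells with 10863807 to 19478120 UMIs per library remained. Cells were clustered without the member genes, and clusters were named from marker lists. Each cell was first scaled to its total UMIs, members included, so that members could still act on its place through that total. Levels are counts per 1000000 UMIs (CPM) of the summed counts of a class. Of 8287 distinct barcode sequences 8 occurred in more than 1 library, 4 of them among kept cells.

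In the cytosol the ribosome translates messenger RNA with a small subunit that reads the message and a large subunit that joins amino acids, and each subunit carries many proteins around its ribosomal RNA. Most of these proteins have a single functional gene, needed in about equal amounts, and many of their messages start with a run of pyrimidines (the terminal oligopyrimidine tract) through which mTORC1 and Larp1 control translation. UMI counts read the amount of message and not its translation. In stratified epithelium, basal keratinocytes divide and suprabasal ones differentiate, while the glands of the oral mucosa make mucins and other secreted proteins.

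Ribosomal protein genes made up nearly 1 UMI in 2 of the basal keratinocyte-like cells and about 1 in 10 of the gland-like cells. Their summed share was 48.1%, 45.9%, 48.1% and 47.0% of UMIs in basal-like cells of libraries DM, D, M and H. In suprabasal-like cells it was 42.4%, 37.6%, 37.8% and 38.5%, and in cycling keratinocyte-like cells it was 41.4%, 40.9%, 42.4% and 42.3%, in the same libraries. Keratinocyte-like cluster 9, led by Pappa and Mt4, had no layer name and was at 26.3%, 25.2%, 29.7% and 27.3%. In gland-like cells it was 10.3%, 11.6%, 13.2% and 8.56%. The ranges of the gland-like and keratinocyte layers did not overlap. Keratinocyte-like cluster 20, of 70 cells led by BC037156 and Sprr2d, had no layer name and lay below the keratinocyte layers, near the gland-like values. In DM, D, M and H it held 0.607%, 1.48%, 0.658% and 1.46% of keratinocyte-like UMIs. Of keratinocyte-like member UMIs it held 0.196%, 0.424%, 0.203% and 0.299%. Over all libraries it held a median of 159 member UMIs per barcode, at a median of 1874 UMIs in all. Over all kept cells the share was 17.4% in DM, 21.1% in D, 24.4% in M and 18% in H, values that also carry how many cells of each class a library held.

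Stromal and blood classes lay on the gland side of this order. Endothelial-like cells stood at 15.9%, 16.9%, 16.2% and 12.0% in DM, D, M and H, from 29, 105, 59 and 40 cells. Leukocyte-like cells stood at 21.4%, 14.7%, 15.0% and 15.8%, from 27, 52, 30 and 22 cells. Fibroblast-like cells reached 20 cells in 2 libraries, with 13% in D and 13.7% in M. Myoepithelial-like cells also lay below the keratinocyte layers, at 8.93%, 21.7%, 13% and 10.5% in DM, D, M and H. These values came from 36, 61, 28 and 19 cells. Over all libraries pericyte-like cells were at 9.40%, Schwann-like cells at 10.4% and erythrocyte-like cells at 1.97%. Maturing red cells, the class with the lowest share, are known to be filled with globin RNA.

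**Figure D1:**
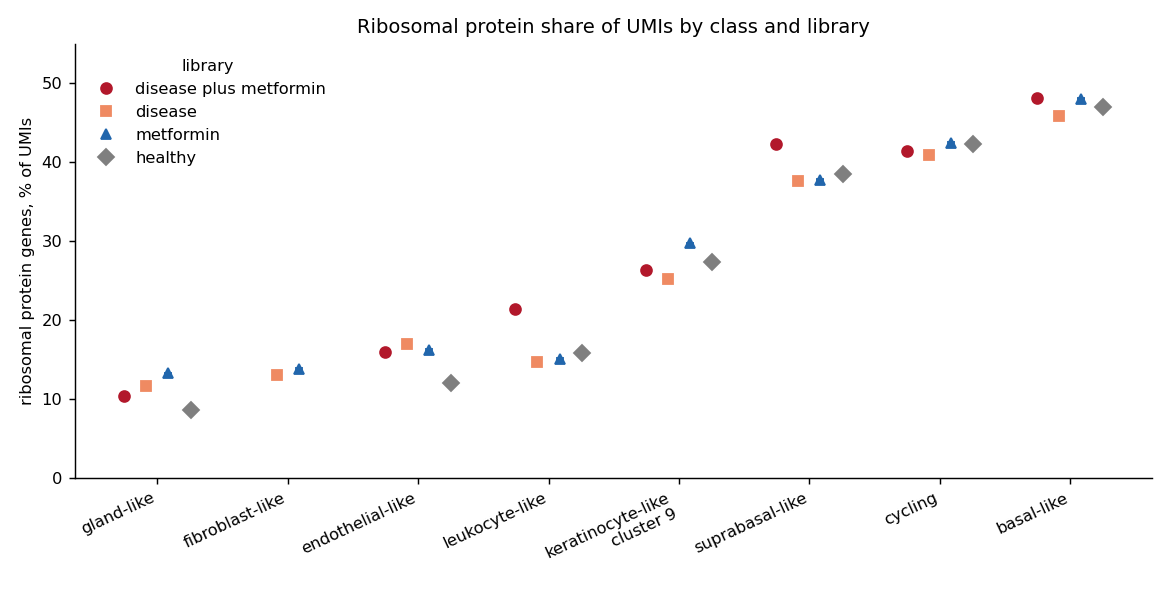
Summed ribosomal protein UMIs as a percent of all UMIs (vertical axis) in selected cell groups (horizontal axis), for libraries where the group had at least 20 cells. Each symbol is 1 library and the bars are exact 95% counting intervals, mostly smaller than the symbols. Myoepithelial-like, Schwann-like and erythrocyte-like cells are not shown. The basal-like values lie between 45.9% and 48.1% and the gland-like values between 8.56% and 13.2%, with the stromal classes nearer to the gland-like ones.

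The low share in gland-like cells did not mean few member UMIs in every barcode. A gland-like barcode held a median of 341 member UMIs of 7378 UMIs in all, against 620.5 of 1536.5 in a keratinocyte-like barcode. Gland-like cluster 3, led by Wfdc12 and Tff2, held a median of 2469.5 member UMIs of 21985. Keratinocyte-like cluster 9, of like depth, held 6165 of 23768. At about the same depth the keratinocyte-like cluster thus had more member UMIs per barcode than the gland-like one. Secreted gland products, from a list of 28 genes, took 23.9%, 20.6%, 20.7% and 28.8% of the gland-like UMIs in DM, D, M and H. With secreted products and keratins left out of the total, the median difference between the classes over the 4 libraries was -1.21 on the log2 scale, against -1.53 with them.

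The gland-like clusters differed among themselves. Cluster 10, led by Chrm3 and Cracr2a, had the lowest member share, at 3.03%, 4.54%, 5.74% and 3.20% in DM, D, M and H. Cluster 3 had 11%, 11.1%, 13% and 11.1%, and cluster 5, led by Tff2 and Wfdc12 at a median of 788.5 UMIs, had 11.8%, 12.4%, 15.9% and 11.7%. Cluster 15, led by Wfdc18 and Bpifb1, had 14.8%, 22.4%, 15.9% and 7.40% in DM, D, M and H, from 26, 16, 48 and 43 cells. Library M was the highest in clusters 3, 5 and 10, and library D in cluster 15.

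Signs of barcode quality, which also depend on depth, moved with the member share. In keratinocyte-like cells, 1188 barcodes (31.6%) had both a UMI of Malat1, a nuclear RNA that nearly every cell holds, and a mitochondrial UMI, and their member share was 28.6%. The 983 barcodes with neither had 45.9%. A deeper barcode is more likely to hold both, and the shares are of summed UMIs. Cluster 9, at a median of 23768 UMIs, held 61.4%, 71.1%, 57.4% and 73.9% of keratinocyte-like UMIs in DM, D, M and H. The part of depth and of cluster 9 in these values was not tested. In gland-like cells 1238 barcodes (82.3%) had both, at 10.9%, and 57 had neither, at 18.9%. Barcodes with no mitochondrial UMI were 58.8%, 30.6%, 48.3% and 44.5% of keratinocyte-like cells and 10.5%, 5.58%, 11.5% and 7.26% of gland-like cells in DM, D, M and H. Within the barcodes that had both, the gland-like share stayed below the keratinocyte-like one, at 10.2% against 27.7% in DM, 11.6% against 26.0% in D, 13.2% against 31.3% in M and 8.5% against 27.5% in H.

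Members were compared one by one between gland-like and keratinocyte-like cells of the same library, over the 83 members with at least 20 UMIs. A member counted as higher or lower when it differed by at least 1.5-fold. In DM, D, M and H, 78, 77, 77 and 79 of the 83 were lower in gland-like cells, and 77 were lower in all 4 libraries, against 28.4% of all 11279 genes measured in every library. None was higher in all 4, against 18% of all genes. The median member stood at log2 -1.74, -1.41, -1.48 and -1.91, and the median gene at -0.27, -0.39, -0.16 and -0.54.

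The proteins of the stalk, the flexible arm of the large subunit that recruits elongation factors, were among the lower members. Rplp0, the base of the stalk, was at 1437, 1654, 1682 and 1117 CPM in gland-like cells of DM, D, M and H, against 7840, 6485, 7582 and 6450 CPM in keratinocyte-like cells. The log2 ratios were -2.45, -1.97, -2.17 and -2.53. Rplp1 and Rplp2, its partners, were also lower in each library, Rplp1 at -1.92, -1.67, -1.49 and -1.81. No library's gland-like value of Rplp0 came near any keratinocyte-like value.

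Small-subunit members with roles outside plain assembly followed the same order. Rpsa, also known as the laminin receptor, was at 1034, 1212, 1257 and 872 CPM in gland-like cells of DM, D, M and H, against 5127, 4579, 5286 and 4639 CPM in keratinocyte-like cells. Rps6, the substrate of the S6 kinases downstream of mTORC1, was at 487, 490, 545 and 376 CPM, against 1666, 1506, 1617 and 1426 CPM. Rps19, the gene most often mutated in Diamond-Blackfan anaemia in people, was at 771, 971, 1048 and 574 CPM, against 3777, 3516, 3775 and 3398 CPM. The groups of library values did not overlap for any of these genes. Rps18 had the lowest ratio of all members in DM, D and H and the lowest but for Rplp0 in M, at 334, 419, 503 and 259 CPM in gland-like cells against 1963, 1701, 2251 and 1649 CPM in keratinocyte-like cells. Rps14, haploinsufficient in a human myelodysplastic syndrome, was at log2 -1.86, -1.47, -1.47 and -1.95, and Rps25, used by some viral entry sites, was at -1.17, -0.93, -1.09 and -1.37.

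Large-subunit members covered a wider range. Rpl5 and Rpl11, which together bind the small ribosomal RNA of the large subunit and can hold Mdm2 when assembly fails, were at log2 -1.90, -1.62, -1.57 and -2.02 for Rpl5 and -1.68, -1.41, -1.49 and -1.91 for Rpl11, in DM, D, M and H. Rpl13a, a silencer of some inflammatory messages in human monocytes, was at -2.09, -1.80, -1.76 and -2.33. Rpl10, which joins the large subunit late, was nearer to 0, at -0.77, -0.68, -0.65 and -0.84. The 4 libraries put these members in nearly the same places.

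The 6 measured members that were not 1.5-fold lower in all 4 libraries were Rpl36al, Rps27l, Rpl38, Rps19bp1, Rpl41 and Rps29. Rpl38, which in mouse embryos is needed for translation of a set of Hox messages, was at 2500, 2748, 3577 and 2608 CPM in gland-like cells of DM, D, M and H, against 3244, 2658, 3835 and 3536 CPM in keratinocyte-like cells. Its log2 ratio was -0.38, 0.05, -0.10 and -0.44, so that the 2 classes overlapped. Rpl41, the shortest ribosomal protein, was at -0.57, -0.30, -0.30 and -0.84, and Rps29, a zinc-finger protein of the small subunit, was at -0.83, -0.58, -0.58 and -1.04. Rps19bp1, which encodes a binding partner of Rps19 and of the deacetylase Sirt1, was at -0.21, 0.15, 0.08 and -0.20, with counting intervals that reach across 0 in each library.

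Rpl36al and Rps27l were the only measured members above 0 on the log2 scale in all 4 libraries, and both are paralogs. Rpl36al, an autosomal gene on chromosome 12 (69182731 to 69184083, minus strand, mm10) for a protein nearly the same as that of X-linked Rpl36a, was at 1844, 2018, 2059 and 1543 CPM in gland-like cells of DM, D, M and H, against 1328, 1221, 1370 and 1215 CPM in keratinocyte-like cells. Its partner Rpl36a (chromosome X, 134585654 to 134588062, plus strand) was at 477, 567, 660 and 394 CPM, against 1968, 1719, 2274 and 1801 CPM. Rpl36al thus lay above every keratinocyte-like value in all 4 gland-like values, while Rpl36a lay below, at log2 -2.04, -1.6, -1.78 and -2.19. The ratio of Rpl36al was 0.47, 0.73, 0.59 and 0.35 in DM, D, M and H, past 1.5-fold in D and M alone.

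Rps27l (chromosome 9, 66946086 to 66949516, plus strand), a p53 target in human and mouse cells, and Rps27 (chromosome 3, 90212522 to 90213651, minus strand), a zinc-finger protein of the small subunit, had the same pattern. Rps27l was at 653, 726, 728 and 589 CPM in gland-like cells of DM, D, M and H, against 511, 458, 511 and 458 CPM in keratinocyte-like cells. Rps27 was at 1255, 1434, 1856 and 1131 CPM, against 3428, 3256, 4129 and 3745 CPM. The third pair differed less. Rpl22l1 (chromosome 3, 28805436 to 28807424, plus strand), whose message Rpl22 restrains in the mouse, was at 662, 715, 846 and 572 CPM against 1538, 1250, 1535 and 1396 CPM. Rpl22 was at 754, 875, 994 and 610 CPM against 2764, 2452, 2894 and 2607 CPM.

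Expressed as the share of a pair's UMIs, the paralogs separated the classes in every library. Because the members of a pair may differ in how well they are captured, these shares are read across classes and not as transcript ratios. Rpl36al held 79.4%, 78.1%, 75.7% and 79.6% of the Rpl36al and Rpl36a UMIs in gland-like cells of DM, D, M and H, against 40.3%, 41.5%, 37.6% and 40.3% in keratinocyte-like cells. Rps27l held 34.2%, 33.6%, 28.2% and 34.2% of its pair in gland-like cells, against 13%, 12.3%, 11% and 10.9% in keratinocyte-like cells. Rpl22l1 held 46.7%, 45.0%, 46.0% and 48.4%, against 35.8%, 33.8%, 34.7% and 34.9%. The median difference was 38.6 percentage points for Rpl36al, 21.3 for Rps27l and 11.3 for Rpl22l1. In barcodes with both Malat1 and a mitochondrial UMI, Rpl36al held 79.6%, 78.1%, 75.8% and 79.7% in gland-like cells against 41.1%, 41.7%, 37.6% and 40.0% in keratinocyte-like cells.

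Other classes placed the pairs differently. In endothelial-like cells Rpl36al held 33.9%, 37.3%, 34.1% and 39.8% and Rps27l held 12.2%, 11.1%, 10.4% and 10.6% in DM, D, M and H, each below the pooled keratinocyte-like value of the same library. By layer this did not hold for Rps27l. Its endothelial-like share was above the basal-like one in every library, and above the suprabasal-like one in DM and H. Rpl22l1 held 31.7%, 21.3%, 20.4% and 18.5% there, below every keratinocyte-like value. Among gland-like clusters over all libraries, Rpl36al held 80.0%, 76.7%, 80.0% and 69.3% in clusters 3, 5, 10 and 15, and Rps27l held 34.4%, 24.1%, 34.3% and 25.3%. The high Rpl36al share was thus found in gland-like clusters of high and of low member share. Unnamed cluster 0, led by Dcpp2 and Dcpp3 and holding gland markers beside keratinocyte ones, had 56.9% for Rpl36al and 16.7% for Rps27l, between the classes.

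**Figure D2:**
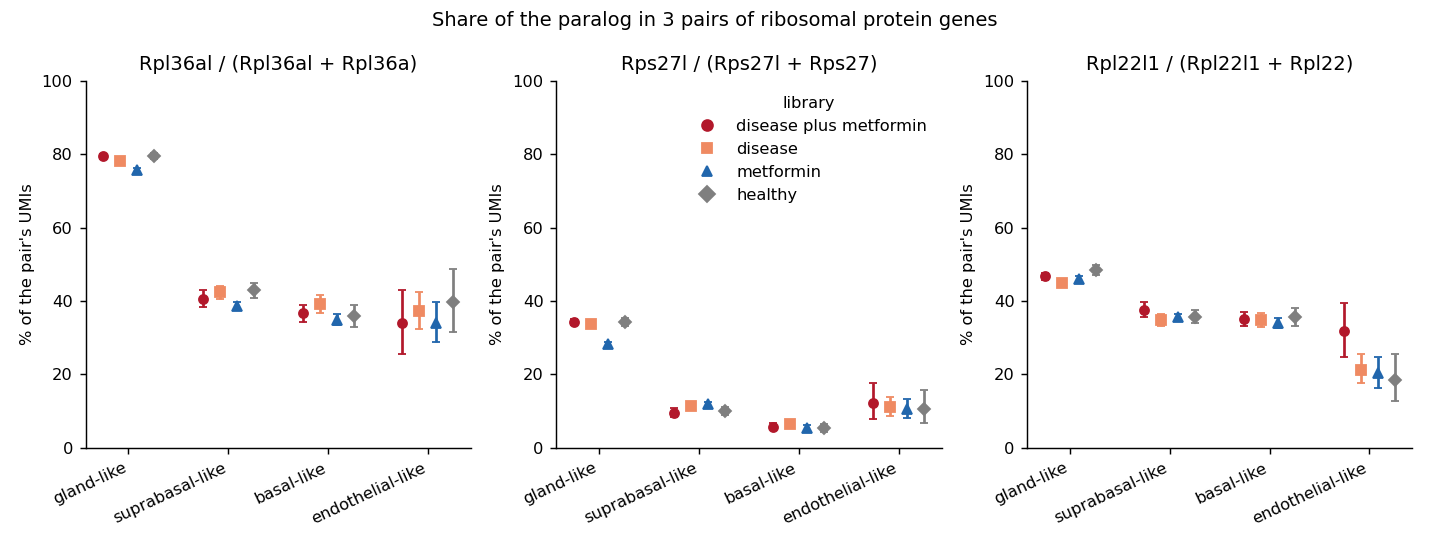
Share of the paralog in the UMIs of its pair (percent, vertical axis) for Rpl36al, Rps27l and Rpl22l1 in 4 classes; each symbol is 1 library, and bars are exact 95% counting intervals. The gland-like values of Rpl36al (75.7% to 79.6%) and of Rps27l (28.2% to 34.2%) lie above all others, and Rpl22l1 separates least.

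The starts of the paired genes differ in sequence. They are shown because a gene and its paralog differed between the classes while their proteins are alike. Each line gives 30 bases of the gene strand from the RefSeq promoter table (GRCm38.p6, the assembly of mm10), 15 bases before the annotated start and 15 from it on. Capitals mark the letters CTTTC or CTTTT, a form of the pyrimidine tract.
Rpl36al at chr12:69184053-69184082, minus strand: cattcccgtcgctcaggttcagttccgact
Rpl36a at chrX:134585639-134585668, plus strand: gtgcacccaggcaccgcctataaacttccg
Rps27l at chr9:66946071-66946100, plus strand: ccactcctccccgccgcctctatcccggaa
Rps27 at chr3:90213634-90213663, minus strand: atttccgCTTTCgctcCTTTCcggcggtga
Rpl22l1 at chr3:28805493-28805522, plus strand: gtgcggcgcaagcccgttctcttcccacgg
Rpl22 at chr4:152325711-152325740, plus strand: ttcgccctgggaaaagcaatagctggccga
Rpl38 at chr11:114668565-114668594, plus strand: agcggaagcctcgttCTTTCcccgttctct
Of these 7, the letters occur in Rps27 and Rpl38, and in none of the 3 paralogs shown.

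Over all members in the table (66 of 86, the first entry of each), 22 held CTTTC or CTTTT on the gene strand within 20 bases of the start, which is 33.3%, against 9.12% of 26959 other genes. On the other strand the letters stood in 7.58% of members and 8.33% of other genes. A run of at least 5 pyrimidines at the annotated start was found in 28.8% of members and 9.91% of other genes. Among the 6 paralogs 1 held the letters. The annotated start decides these counts, and the absence of the letters from a window says nothing of the factors that read such tracts.

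The remaining paralogs were rare. Rpl39l, known mainly from testis in the mouse, had 17 UMIs beside 211241 of Rpl39, and 14 of the 17 were in gland-like cells, 13 of them in H. Rpl3l, known from striated muscle, had 5 UMIs, 3 in leukocyte-like and 2 in gland-like cells. Rpl10l, an autosomal copy of Rpl10 known from the male germ line, had 0 UMIs in all 4 libraries, a count that allows up to 3. These members had under 20 UMIs and were left out of the counts of members. Rps27rt, a retrotransposed copy of Rps27 that was counted on its own, had 911, 1103, 2040 and 941 UMIs in DM, D, M and H. Near-identical copies such as these and the many processed pseudogenes of ribosomal protein genes can split or lose reads, so that the level of any one member is uncertain.

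To set aside the total, each member was also given as a percent of all member UMIs of a class, here called its share of the pool. Over the 83 measured members, 26 had a higher pool share in gland-like than in keratinocyte-like cells in all 4 libraries and 43 had a lower one. By subunit, 18 of 49 large-subunit members were higher and 20 lower, and 8 of 34 small-subunit members were higher and 23 lower. The small-subunit members together made up 40.3%, 40.9%, 40.5% and 40.6% of the pool in gland-like cells of DM, D, M and H, against 45.3%, 45.2%, 45.1% and 45.6% in keratinocyte-like cells.

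At least 1.5-fold higher in all 4 libraries were 7 members, Rpl36al, Rps27l, Rps19bp1, Rpl38, Rpl41, Rpl10 and Rps29. At least 1.5-fold lower in all 4 were 5, among them Rps18, Rplp0, Rps12 and Rps4x. In barcodes with both Malat1 and a mitochondrial UMI, 7 were again higher by this limit and 1, Rps4x, was lower. Rpl36al made up 1.79%, 1.74%, 1.56% and 1.80% of the pool in gland-like cells, against 0.402%, 0.418%, 0.398% and 0.399% in keratinocyte-like cells, of DM, D, M and H. Rpl38 made up 2.43%, 2.37%, 2.71% and 3.05%, against 0.983%, 0.909%, 1.11% and 1.16%. Rps18 made up 0.325%, 0.361%, 0.381% and 0.303%, against 0.595%, 0.582%, 0.653% and 0.542%. The spread between libraries was small beside the difference between the classes for all 3 genes. Rpl10, whose level differed most between M and H in keratinocyte-like cells, made up 0.727%, 0.662%, 0.751% and 0.631%, against 0.387%, 0.421%, 0.453% and 0.317%.

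**Figure D3:**
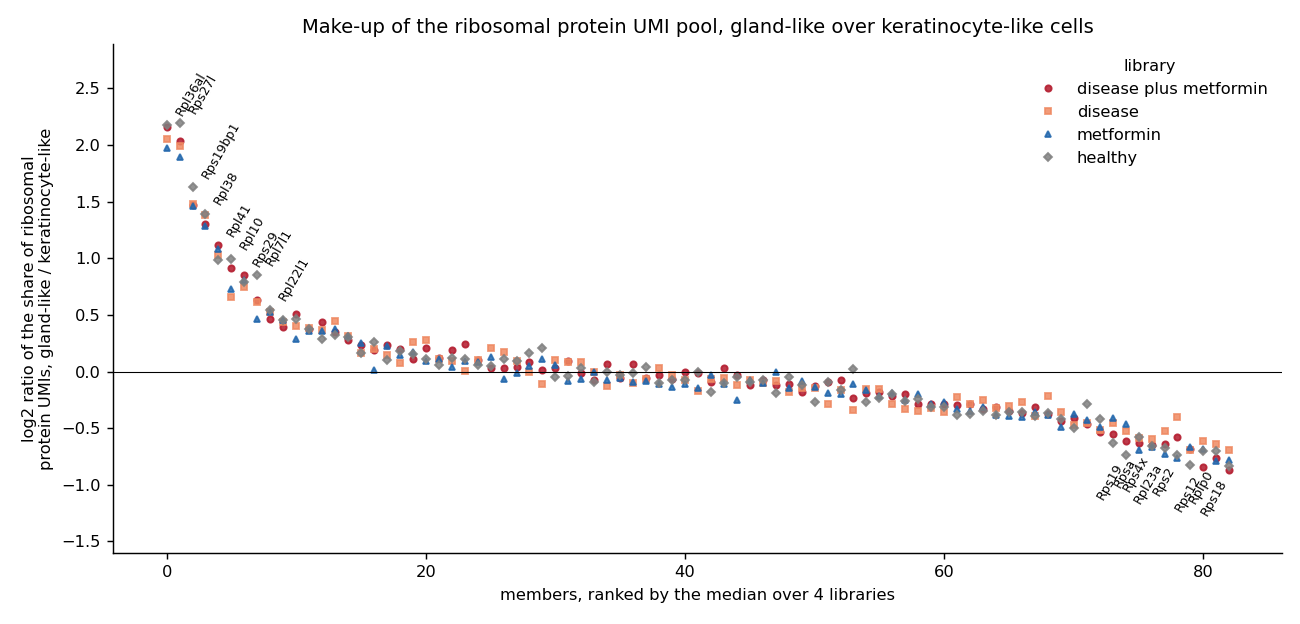
Log2 ratio of each member's pool share in gland-like over keratinocyte-like cells (vertical axis) for the 83 measured members, ranked by the median over libraries (horizontal axis); each symbol is 1 library. The 4 libraries give nearly the same order, from Rpl36al at 1.97 to 2.18 down to Rps18 at -0.87 to -0.69.

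Pool ranges were ranked over gland-like, basal-like, suprabasal-like and cycling cells and all libraries, for members with at least 100 UMIs in each. Among these members the pool share of Rpl36al ranged most, by 2.69 on the log2 scale. It ran from 0.279% in basal-like cells of DM to 1.80% in gland-like cells of H. Rpl38 (1.97), Rps29 (1.49), Rpl41 (1.47) and Rps18 (1.33) came next. Rpl22 (0.15), Rpl37a (0.16), Rpl32 (0.16), Rps20 (0.18) and Rpl7 (0.22) ranged least. Rpl22 thus varied least of those ranked, while its paralog Rpl22l1 was higher in gland-like cells by 0.46, 0.52, 0.52 and 0.54. Rps27l and Rps19bp1 did not meet the limit of UMIs and ranged more than Rpl36al. Rps27l ran from 0.0745% in basal-like cells of DM to 0.688% in gland-like cells of H. Rps19bp1 ran from 0.00623% in basal-like cells of M to 0.0433% in gland-like cells of H.

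Members with short coding sequences tended to have the higher pool ratios. Across 80 genes Spearman's rho between coding length and the pool ratio of gland-like over keratinocyte-like cells was -0.38, -0.51, -0.52 and -0.40 in DM, D, M and H. The genes share their libraries and are not independent, so no p is given. Rpl41, with 75 coding bases, Rps29 with 168 and Rpl38 with 210 were on the high side. Rpl39, with 153 coding bases, was near 0, and Rpl10, with 642, was high, so that length did not order every member. For suprabasal-like over basal-like cells rho was -0.26, -0.20, -0.24 and -0.23.

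**Figure D4:**
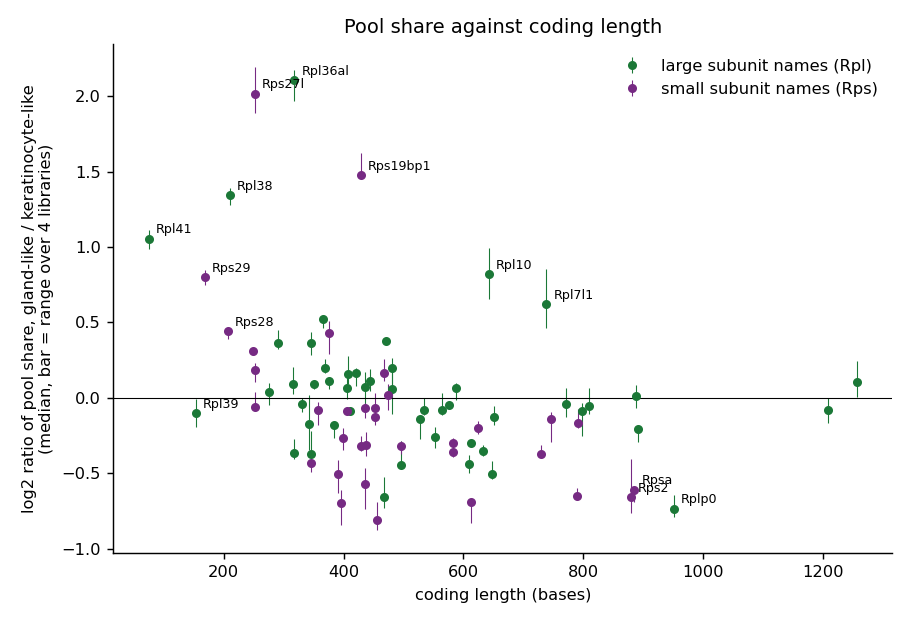
Log2 ratio of the pool share in gland-like over keratinocyte-like cells (median of 4 libraries; bars give the range) against coding length in bases, with large-subunit names in green and small-subunit names in purple. Rpl41, Rps29 and Rpl38 stand high at 75 to 210 bases, and Rpl36al and Rps27l stand above other genes of their length.

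Within the keratinocyte layers the members moved little. The log2 ratio of the member share in suprabasal-like over basal-like cells was -0.18, -0.28, -0.35 and -0.29 in DM, D, M and H. No member was at least 1.5-fold higher in all 4 libraries and none was lower, against 8.98% and 4.12% of 2694 genes. With all member genes used in the clustering, which then sorts cells by them, 48 members were lower in all 4. The share of all genes under that clustering was not computed. Rps27 passed the limit in 3 libraries, at 4086, 4041 and 4329 CPM in suprabasal-like cells of D, M and H, against 6135, 6875 and 6503 CPM in basal-like cells, or log2 -0.59, -0.77 and -0.59, and was at -0.34 in DM. Rps27l ran the other way, at 489, 519, 547 and 480 CPM in suprabasal-like cells of DM, D, M and H, against 358, 417, 400 and 364 CPM in basal-like cells. Its share of the pair was 9.6%, 11.3%, 11.9% and 10.0% in suprabasal-like cells, against 5.8%, 6.4%, 5.5% and 5.3% in basal-like cells, and the layers did not overlap. Cycling cells stood at -0.22, -0.17, -0.18 and -0.15 over basal-like ones.

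Endothelial-like and fibroblast-like cells had lower member CPM than keratinocyte-like cells. In endothelial-like over keratinocyte-like cells 61 of 83 members were at least 1.5-fold lower in all 4 libraries, against 6.53% of all genes. In fibroblast-like over keratinocyte-like cells 78 of 83 were lower in both libraries that could be compared, against 15.2% of all genes. The log2 ratio of the member share was -1.05, -0.79, -1.09 and -1.34 in endothelial-like cells of DM, D, M and H. Rplp0 was at 1920, 1916, 1679 and 1060 CPM in endothelial-like cells, against 7840, 6485, 7582 and 6450 CPM in keratinocyte-like cells. Rps29 was at 3348, 4214, 4945 and 3377 CPM, against 4177, 3899, 5251 and 4900 CPM, and overlapped. Rpl36al was lower, at 505, 611, 537 and 472 CPM against 1328, 1221, 1370 and 1215 CPM, where gland-like cells had it higher.

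After each cell was thinned to 1000 UMIs, keratinocyte-like cells held a median of 76, 75, 76 and 75 members with a UMI in DM, D, M and H, with 242, 395, 363 and 294 shallower cells left out. Gland-like cells held 46, 50, 55 and 43.5, with 166, 30, 67 and 74 left out. Without thinning the gland-like medians were 78, 81, 81 and 77 in the cells with at least 1000 UMIs, and 69, 80, 78 and 69 in all gland-like cells. Free RNA from other cells can add UMIs, and the secreted gland products, at 0.409%, 0.0791%, 0.202% and 0.284% of keratinocyte-like UMIs, are a measure of gland messages in that class. Its part in the member values was not tested.

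Translation genes outside the naming rule differed by list between gland-like and keratinocyte-like cells. Of all genes measured in a library, 38.9%, 43.1%, 35.4% and 48.3% were at least 1.5-fold lower in gland-like cells of DM, D, M and H. Of 6 ribosomal or ribosome-bound proteins with other names (among them Fau, Rack1 and Naca), 6 were at least 1.5-fold lower in each library, with medians of log2 -1.56, -1.22, -1.44 and -1.69. Of 7 measured elongation factors 6, 6, 6 and 7 were lower in DM, D, M and H, and of 39 ribosome biogenesis factors 31, 28, 26 and 32. Of 30 initiation factors 18, 13, 13 and 17 were lower, shares nearer to those of all genes. Mitochondrial ribosomal proteins, which serve the organelle's own ribosome, were lower for 32, 20, 27 and 41 of 78, with medians of -0.46, -0.27, -0.34 and -0.61, close to the median of all genes. Regulators of ribosome production by mTORC1 and Myc did not move one way, with 5, 5, 7 and 5 higher and 6, 7, 4 and 11 lower of 25. Of 11 or 12 measured p53 targets 6, 6, 6 and 7 were lower. Cornification genes were lower for 13 of 13, 12 of 12, 15 of 15 and 14 of 14, and secreted gland products were higher for 18 of 19, 20 of 20, 20 of 20 and 19 of 19, as the names of the classes imply.

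Between conditions, members of gland-like cells were higher in M than in H. The member share was 13.2% of UMIs in M and 8.56% in H, a log2 ratio of 0.63 with a counting interval of 0.62 to 0.63. Of 83 members 49 were at least 1.5-fold higher and 0 lower, against 16.9% and 4.52% of all measured genes. The median member was at 0.61 and the median gene at 0.18. With the ratios centred on the median gene 12 members were higher, and by a scaling with trimmed means 13. The shares of all genes under these scalings were not computed, and the 16.9% does not apply to them. Up to 3 of the highest and 3 of the lowest members of each comparison are named, ranked by the interval bound nearest 0 among members with at least 50 UMIs. Rps18 was at 503 CPM in M and 259 CPM in H (log2 0.96, interval 0.86 to 1.05), Rps2, at the message entry of the small subunit, was at 961 CPM in M and 508 CPM in H (0.92), and Rpl35 was at 811 CPM in M and 431 CPM in H (0.91). The lowest by this rule were Rps27l at 0.31, Rps25 at 0.37 and Rpl6 at 0.40, and all 83 members were above 0.

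The size of that difference depended on the gland-like cluster. Within cluster 3, which held 60.8% of the gland-like UMIs in M and 53.9% in H, the log2 ratio of the member share was 0.23 and 2 members were 1.5-fold higher, against 14.1% of all genes. Within cluster 5 it was 0.44 with 22 members higher, against 18.6% of all genes, and within cluster 10 it was 0.84 with 67, against 19.9%. Within cluster 15, with 48 cells in M and 43 in H, it was 1.11 with 82 members higher, against 54.9% of all genes. Rps18 was at 483 CPM in M and 340 CPM in H within cluster 3, and at 299 CPM in M and 85.1 CPM in H within cluster 10. Cluster 15 held 27.9% of the gland-like UMIs in M and 21.2% in H, and without it 12 members were higher. Cluster 10, which had the lowest member share, held 9.35% of the gland-like UMIs in M and 22.6% in H. Leaving cluster 10 out also lowered the count of higher members. The share of all genes without either cluster was not computed. Secreted gland products took 20.7% of gland-like UMIs in M and 28.8% in H, and their part in the member ratios was not tested. Of the other translation lists, 4 of 6 ribosome-bound proteins were at least 1.5-fold higher in M than in H, against the 16.9% of all genes given above. The 6 of 39 biogenesis factors, 4 of 30 initiation factors and 1 of 7 elongation factors that were higher made up shares near that of all genes.

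In keratinocyte-like cells the member share was 34.4% in M and 30.4% in H, a log2 ratio of 0.18. Of 83 members 2 were at least 1.5-fold higher and 0 lower, against 5.66% and 21.1% of all genes. The 2 were Rpl10, at 1559 CPM in M and 964 CPM in H (log2 0.69, interval 0.65 to 0.74), and Rpl29, a heparin-binding protein of the large subunit, at 405 CPM in M and 263 CPM in H (0.63). Rps2, at 4244 CPM in M and 3018 CPM in H, followed at 0.49, and Rps3a1 (-0.00), Rps15 (0.02) and Rps12 (0.04) were lowest. Within pooled layers the share hardly differed, at 0.03 in basal-like, -0.03 in suprabasal-like and 0.00 in cycling cells. The larger suprabasal-like clusters lay on both sides of this, at -0.20 in cluster 2, -0.02 in cluster 7 and 0.11 in cluster 8. Cluster 9 held 57.4% of keratinocyte-like UMIs in M and 73.9% in H from 7.4% and 10.8% of the cells, and without it the ratio was 0.05 and no member was 1.5-fold higher.

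D and H differed in the same class and less in the other. In gland-like cells the member share was 11.6% in D and 8.56% in H (log2 0.44), with 15 members at least 1.5-fold higher and 0 lower, against 16.3% and 5.8% of all genes, a share of members near that of all genes. Rps19 was at 971 CPM in D and 574 CPM in H (0.76), and Rps2 followed at 0.75. Rplp1 (-0.05), Rps28 (-0.01) and Rpl38 (0.08) were near 0. Within cluster 3 the ratio was -0.01 with 0 members higher, within cluster 5 it was 0.09 with 3 and within cluster 10 it was 0.51 with 34, against 10.3%, 28.4% and 15.1% of all genes in these clusters. Cluster 15, with 16 cells in D, held 30.8% of the gland-like member UMIs there, and without it 0 members were higher.

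In keratinocyte-like cells of D over H the member share had a log2 ratio of -0.06 and 0 members passed 1.5-fold in either direction, against 7.16% higher and 6.18% lower of all genes. The lowest members were Rps28, Rpl38 and Rps29. Rps28 was at 3723 CPM in D and 5221 CPM in H (log2 -0.49), Rpl38 at 2658 CPM in D and 3536 CPM in H (-0.41), and Rps29 was at -0.33. Rps28 and Rpl38 were lower in D within cluster 9 as well, at -0.52 each. The highest were Rpl10 at 0.35, Rpl21 at 0.28 and Rpl10a at 0.23.

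Between DM and D the members of gland-like cells differed by little, and most lay below 0 on the log2 scale. The share was 10.3% in DM and 11.6% in D (log2 -0.18), with 0 members at least 1.5-fold higher and 1 lower, against 7.16% and 9.92% of all genes. Of 83 members 80 were below 0, and the median member was at -0.19 and the median gene at -0.07. Without cluster 15 the ratio of the member share was 0.06. The 1 was Rpl26, a large-subunit protein that promotes p53 translation in human cells, at 684 CPM in DM and 1080 CPM in D (-0.66, interval -0.72 to -0.60). It was also lower in DM within cluster 3, at 729 CPM in DM and 1057 CPM in D (-0.53). Rpl23a (-0.49), which like Rpl26 and Rpl35 lies at the exit of the tunnel for the growing protein chain, and Rps15 (-0.39) followed, and Rps3a1 was highest at 0.08, with Rpl17 at 0.00 and Rps24 at -0.02. Within cluster 10 alone the ratio of the member share was -0.58 with 38 members lower, against 13.4% of all genes, while in cluster 3 it was -0.00 with 0, against 7.19%.

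In keratinocyte-like cells the member share was 33% in DM and 29.2% in D (log2 0.18), and 0 members passed 1.5-fold either way, against 3.87% higher and 13.7% lower of all genes. Rpl35a, at 5381 CPM in DM and 4145 CPM in D, was highest at 0.38, followed by Rps3a1 at 0.35 and Rps28 at 0.34. Rpl26 was again lowest, at -0.17, followed by Rpl35 at -0.06 and Rpl23a at -0.02. By layer the ratio of the member share was 0.07 in basal-like, 0.17 in suprabasal-like and 0.02 in cycling cells, and it was 0.06 in cluster 9. Within the larger suprabasal-like clusters it was 0.01 in cluster 2, 0.04 in cluster 7 and 0.37 in cluster 8, the last from 38 cells in DM and 98 in D. Barcodes with no mitochondrial UMI were 58.8% of keratinocyte-like cells in DM and 30.6% in D, and cluster 9 held 61.4% of keratinocyte-like UMIs in DM and 71.1% in D. In barcodes with both Malat1 and a mitochondrial UMI the ratio was 0.092, and without cluster 9 it was 0.16. Myoepithelial-like cells had a log2 ratio of the member share of -1.28 for DM over D, from 36 and 61 cells. For DM over M it was -0.54, with 28 cells in M. The cause of these differences was not tested.

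DM and M differed in gland-like cells by log2 -0.36, with 0 members higher and 4 lower, against 5.65% and 10.2% of all genes. Rpl35 was at 460 CPM in DM and 811 CPM in M (-0.82), Rps28 at 1930 CPM in DM and 3045 CPM in M (-0.66), Rps18 at 334 CPM in DM and 503 CPM in M (-0.59), and Rps29 at 2345 CPM in DM and 3520 CPM in M (-0.59). Rpl7a (-0.06), Rpl8 (-0.10) and Rps3a1 (-0.13) were closest to 0. Within clusters 3, 5 and 10 the ratio of the member share was -0.24, -0.42 and -0.92, with 1, 17 and 69 members lower, against 10.3%, 14.2% and 16.6% of all genes. In keratinocyte-like cells it was -0.06 with 0 members either way, against 8.82% higher and 7.13% lower of all genes. Rpl35 was at 1254 CPM in DM and 1770 CPM in M (-0.50), Rpl29 was at -0.40 and Rpl26 at -0.36, and Rps12 (0.11), Rps15a (0.07) and Rpl23 (0.07) were highest. Comparisons that share a library are set side by side here and were not correlated.

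**Figure D5:**
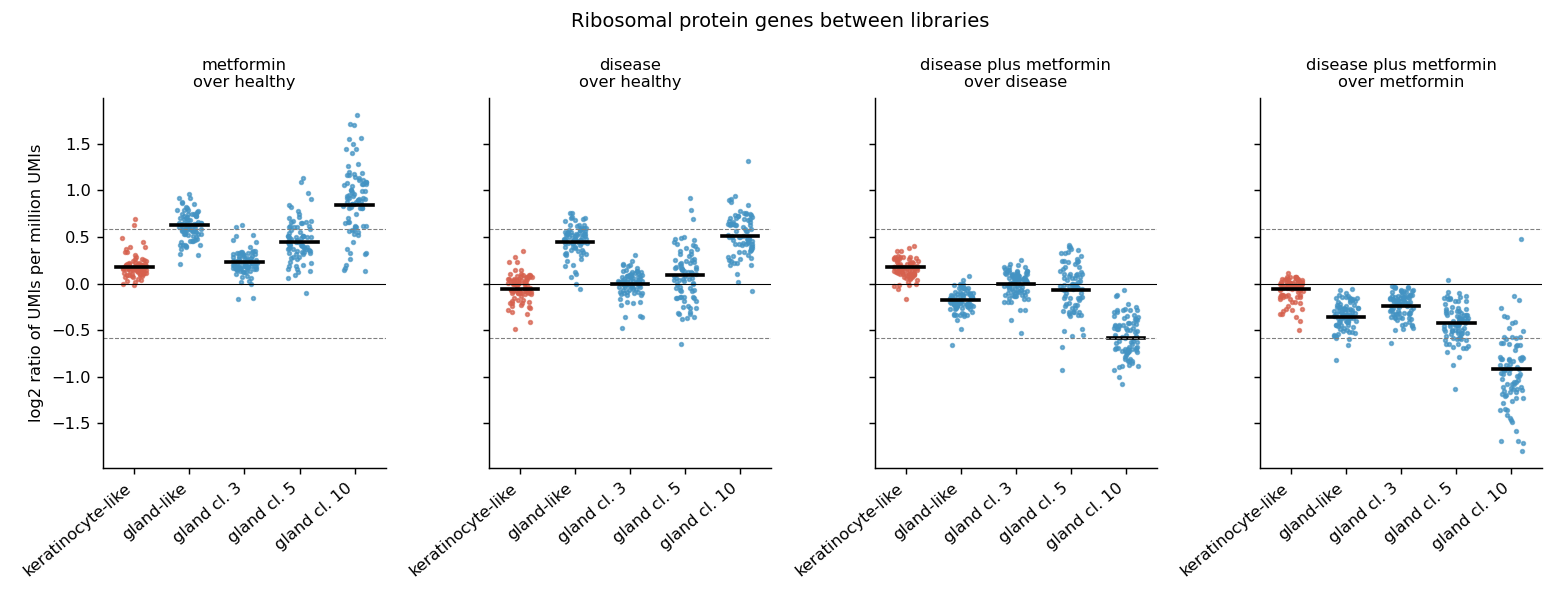
Log2 ratio of CPM for each measured member (points) in 4 comparisons of libraries, for keratinocyte-like cells, gland-like cells and gland-like clusters 3, 5 and 10; black bars are the ratio of the summed member share and dashed lines mark 1.5-fold. Of the cell groups shown, cluster 10 has the largest ratios of the summed share in each panel (0.84, 0.51, -0.58 and -0.92), and the ratios of the summed share in keratinocyte-like cells lie between -0.06 and 0.18.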

How the data were processed

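The 4 libraries, 1 per condition, hold single-cell RNA from the gingiva of mice. Per the submitters' processing notes the reads were converted with bcl2fastq and counted with Cell Ranger 7.0.1 on mm10, and per the labels the libraries were 10x Genomics ones. The sources used here do not name the chemistry. Raw UMI counts per gene and barcode, not normalized, were deposited by the authors. Strand and multi-mapped reads were not described. No deposited barcode had under 500 UMIs.

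A barcode needed 200 or more genes and no more than 20% mitochondrial UMIs, which 7134 met. Scrublet in scanpy called 9 of them (0.126%), below the 0.5% taken as the least of a working caller, so doublets remain. The called cells were removed, which left 7125. The 86 members and the -ps symbols were left out of the clustering, which used 2000 variable genes, 30 principal components, 15 neighbours and the Leiden method at resolution 1, with 26 clusters. Cells were scaled to 10000 UMIs before that, with the members in the total. The members also counted among the 200 genes and in the CPM used for naming. Clusters were named from 20 marker lists where at least 3 markers and 25% of a list were raised, and otherwise stayed unnamed. Names end in "-like". Counts of symbols shared by several gene IDs were summed.

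For each class and library counts were summed and given as CPM. A gene was measured with at least 20 UMIs over both sides of a comparison, and a count of 0 was set to 3. Classes with at least 50 cells were compared in full, and those with 20 to 49 cells are given with their cell numbers. Shares have exact Clopper-Pearson 95% intervals, and ratios have conditional exact binomial ones. Intervals cover counting error only and treat each UMI as an independent draw. With 1 library per group there was no test, and the p-values of a test would not have stood for mice. The ratio and interval code was tested on simulated counts. Total UMIs per library ran from 12507787 to 22333858.

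Named genes were the members of the paralog pairs, fixed examples by role, the 3 highest and 3 lowest members of each comparison, and the 5 members with the most and the 5 with the least range of pool share. The ranges were ranked among members with at least 100 UMIs in each class and library used. Some genes that the rule or a list names are not reported here. Rps27 between layers, Rps18 in the comparison of the disease plus metformin and metformin libraries, members past 1.5-fold in pool share and values within clusters were named after their values were seen. The gene lists were translation elongation factors, initiation factors, ribosome-bound proteins outside the naming rule, ribosome biogenesis factors, mTORC1 and Myc regulators, p53 targets, cornification, secreted gland products and mitochondrial ribosomal proteins, 9 in all. The members and lists were chosen with earlier results of these data known. Coding lengths are those of the principal transcripts of the mm10 annotation, and promoter windows are RefSeq ones. Python 3.11.15, numpy 2.4.6, scipy 1.17.1, pandas 2.3.3, scanpy 1.11.5, leidenalg 0.10.2 and matplotlib 3.10.9 were used.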

Additional observations from a re-analysis of the deposited data

Results flagged for a closer look

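The 2 comparisons of metformin with no metformin pointed in opposite directions in several cell groups, with 1 library on each side, and the difference between them was not tested. Over all kept cells the log2 ratio of the ribosomal protein share was -0.27 for disease plus metformin over disease and 0.44 for metformin over healthy. In gland-like cells the values were -0.18 and 0.63, in cluster 5 -0.072 and 0.44, and in cluster 10 -0.58 and 0.84. In suprabasal-like cells the order was the other way round, at 0.17 for disease plus metformin over disease and -0.026 for metformin over healthy.

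The same 4 libraries give the matching contrast of disease with no disease. Over all kept cells the log2 ratio was -0.49 for disease plus metformin over metformin and 0.23 for disease over healthy. It was -0.36 and 0.44 in gland-like cells, -0.42 and 0.094 in cluster 5, and -0.92 and 0.51 in cluster 10. In suprabasal-like cells it was 0.17 and -0.031. Both sets of values are 1 pattern seen from 2 sides, since they come from the same 4 shares. In gland-like cluster 3, with the most gland-like UMIs in each library, disease plus metformin over disease was at -0.00 and metformin over healthy at 0.23.

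Symbols with a pseudogene suffix, which were left out of the members, had 1416 UMIs in the disease plus metformin library, 1518 in disease, 2744 in metformin and 1297 in healthy, above the 3 that a count of 0 allows. They include Rpl9-ps6, Rpl10-ps3 and Rpl36a-ps1.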

How the results depend on the processing

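No paired analysis was possible because each condition had 1 library and no test was made. Depth limits the classes of few cells most, and the cause of any value that moved was not tested. The log2 ratio of the member share kept its sign under all 16 alternatives in gland-like cells for metformin over healthy (0.23 to 0.84) and disease plus metformin over metformin (-0.92 to -0.24). It changed sign under 1 of 16 for disease over healthy (-0.01 to 0.52) and under 2 of 16 for disease plus metformin over disease (-0.58 to 0.06). In keratinocyte-like cells it changed sign under 3 of 17 for metformin over healthy (-0.20 to 0.42), 3 of 17 for disease over healthy, 1 of 17 for disease plus metformin over disease and 7 of 17 for disease plus metformin over metformin. These alternatives include other limits on the least UMIs of a gene, which cannot change the ratio of a summed share. Leaving out clusters 9, 10 or 15, or adding unnamed cluster 0, was chosen after seeing the data. Filtering on all deposited barcodes gave no class value, because classes exist for kept cells alone.

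Counts of members past the fold moved as follows, where the looser limit is a ratio of 5 to 4. Except within clusters, the share of all genes was not computed for these alternatives. For metformin over healthy in gland-like cells, 49 were higher, against 12 when centred on the median gene, 13 with TMM scaling, 0 per summed member UMIs, 80 at the looser limit, 0 at 2-fold, 2 within cluster 3, 22 within cluster 5, 15 without cluster 10 and 12 without cluster 15. In keratinocyte-like cells 2 were higher, against 7 when centred, 7 with TMM, 0 per summed member UMIs, 0 by the mean over cells, 9 at the looser limit, 0 at 2-fold, 1 at resolution 2, 0, 1 and 0 within clusters 1, 8 and 9, and 0 without cluster 9. For disease over healthy in gland-like cells, 15 were higher, against 2 when centred, 1 with TMM, 0 per summed member UMIs, 1 by the mean over cells, 70 at the looser limit, 0 at 2-fold, 34 at resolution 2, 0 when clustered with the members, 0, 3 and 34 within clusters 3, 5 and 10, 33 with cluster 0 and 0 without cluster 15. In keratinocyte-like cells 0 were lower, against 3 at the looser limit, 2 within cluster 1 and 1 within cluster 2. For disease plus metformin over disease in gland-like cells, 1 was lower, against 0 with TMM, 0 per summed member UMIs, 10 at the looser limit, 0 at 2-fold, 0 when clustered with the members, 0, 2 and 38 within clusters 3, 5 and 10 and 0 without cluster 15. In keratinocyte-like cells 0 were higher, against 4 at the looser limit, 2 within cluster 1 and 3 within cluster 2. For disease plus metformin over metformin in gland-like cells, 4 were lower, against 2 when centred, 2 with TMM, 0 per summed member UMIs, 45 at the looser limit, 0 at 2-fold, 2 with called doublets kept, 1, 17 and 69 within clusters 3, 5 and 10, 12 with cluster 0, 2 without cluster 10 and 1 without cluster 15. In keratinocyte-like cells 0 were lower, against 1 when centred, 1 with TMM, 5 at the looser limit, 1 in barcodes with Malat1 and mitochondrial UMIs and 2 within cluster 7.

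The median log2 difference of the member share between gland-like and keratinocyte-like cells was -1.53, against -1.80 at resolution 2, -1.21 without secreted products and keratins, -2.0 by the mean per cell and -1.92 without cluster 9, and the sign held. At the looser limit 2 members were higher in gland-like cells in every library, against 0. Between suprabasal-like and basal-like cells the difference was -0.29, against -0.40 in barcodes with Malat1 and mitochondrial UMIs, -0.43 at resolution 2 and -0.79 when clustered with the members. There 0 members were lower in every library, against 6 at resolution 2, 48 when clustered with the members and 5 at the looser limit, and 0 to 1 with 1 library left out (1 without disease plus metformin). Shares of all genes were not computed for these alternatives. The Rps27l difference of 21.3 percentage points was 18.6 in barcodes with Malat1 and mitochondrial UMIs and 24.9 without cluster 9, and those of Rpl36al and Rpl22l1 moved by less than their spread.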
